A study of Homo sapiens with 6 samples.

Results

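The genes described here encode the cadherins that hold neighbouring cells together, the catenins that bind their tails and the structural proteins of desmosomes. They were taken from the deposited gene table by symbol. The set held 40 of 19899 genes. It comprised 23 genes named CDH with a number, 7 desmosomal cadherins (DSC1, DSC2, DSC3, DSG1, DSG2, DSG3 and DSG4), 6 desmosomal plaque genes (DSP, JUP, PKP1, PKP2, PKP3 and PKP4) and 4 catenins (CTNNA1, CTNNA2, CTNNB1 and CTNND1). An adjusted p was available from DESeq2 for 37 of them. CDH9, CDH16 and CDH17 were too low for an adjusted p, and CDH9 had 3 estimated counts or fewer in every sample.

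Expression was measured by RNA-seq in COV434, an established ovarian cell line that was long described as granulosa-derived and that the study places among its SCCOHT lines. SCCOHT is a rare ovarian small cell cancer with hypercalcemia that lacks BRG1. Both groups were the same parental cells and received a plasmid for puromycin resistance (pBABE-puro). Control cells (n = 3) received a control plasmid with it, and BRG1 cells (n = 3) received the PBJ5-BRG1 plasmid. The study's methods name pCMV-neo or pCDNA3-neo as the control plasmid. BRG1 is the product of SMARCA4 and powers SWI/SNF complexes, which move nucleosomes. Puromycin at 2 to 3 µg/ml was added 24 hours after transfection and RNA was taken after 3 days of selection. Each group was thus a selected, transfected population of a single line and not a clone. The question of the comparison was which genes changed when BRG1 was reexpressed.

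Cadherins are membrane proteins that bind cadherins of a neighbouring cell through calcium-dependent extracellular repeats. In adherens junctions the tails of classical (type I and type II) cadherins bind beta-catenin, which binds alpha-catenin, which connects to actin. In desmosomes the desmogleins (DSG) and desmocollins (DSC) take the place of classical cadherins. Their tails bind plakoglobin (JUP) and plakophilins (PKP), and desmoplakin (DSP) ties this plaque to keratin filaments.

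SMARCA4, the transfected gene, was checked first. Normalised counts, which are estimated counts divided by a DESeq2 size factor, were 1439, 1676 and 1538 in Control samples 1 to 3 and 108655, 79075 and 78589 in BRG1 samples 1 to 3, with plasmid transcripts included. The log2 fold change was 5.84 (SE 0.18, DESeq2 adjusted p 5.4e-216). Libraries held 29699741 to 63613710 estimated counts, and BRG1 sample 3 was the shallowest. Of 9 granulosa cell markers, the defining FOXL2 and AMHR2 were at 3 counts or fewer in every sample. The summed normalised counts of these 9 markers ranged from 1029 to 1220 in Control and from 1799 to 2852 in BRG1 samples, and INHBA and CYP19A1 were called higher. HSD17B1 (Control and BRG1 means 685.7 and 839.3), AMH (295.4 and 407.7) and INHA (41.86 and 38.17) were expressed in both groups and not called. FSHR (0.2524 and 1.812) and STAR (5.062 and 3.596) were low and not called.

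Of the 37 junction genes with an adjusted p, 10 were called higher with BRG1 and 1 was called lower by DESeq2 at an adjusted p under 0.05. The higher calls were 27.0% of these genes, where 11.0% of all 16002 genes with an adjusted p were called higher. The lower call was 2.70%, against 1.84% of all genes. The 10 genes were CDH13, CDH5, CDH4, CDH24, CDH6, CDH8, CDH11, PKP2, DSP and PKP1, and the lower gene was CDH7. edgeR had a smaller share of false calls than DESeq2 on simulated data, though it too exceeded the threshold. It tested 34 of the genes and called 7 higher, with a background of 9.57% of all its genes. It called 0 lower, with a background of 1.02%. At an unadjusted p under 0.05, 11 of the 34 were higher and 2 were lower by edgeR. Of all 14246 genes, 2065 were higher and 869 were lower at that threshold. CDH11 and CDH8 were not called by edgeR, and PKP1 was too low for its filter.

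Same-numbered Control and BRG1 samples deviated together, so that the replicate number can serve as a block. With the replicate block DESeq2 also called 10 junction genes higher (background 13.4%) and 1 lower (background 6.61%). Of the 10 higher genes 9 were the same, PKP1 was no longer called and JUP was called in its place. The gene called lower was then DSG2 and not CDH7. edgeR with the block called 10 higher (background 13.7%) and 0 lower (background 5.68%). Without BRG1 replicate 1 the DESeq2 count of higher genes fell to 6, as CDH11, CDH6, CDH8 and PKP1 were lost. The median log2 fold change of the 37 genes was 0.17, and that of all genes was -0.01. By edgeR these medians were -0.00 over the 34 genes it tested and -0.04 over all. In 14 of the 40 genes every BRG1 sample lay above every Control sample, and in 4 every BRG1 sample lay below. Among the 18096 genes with a count, the backgrounds were 15.4% above and 8.88% below.

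**Figure D1:**
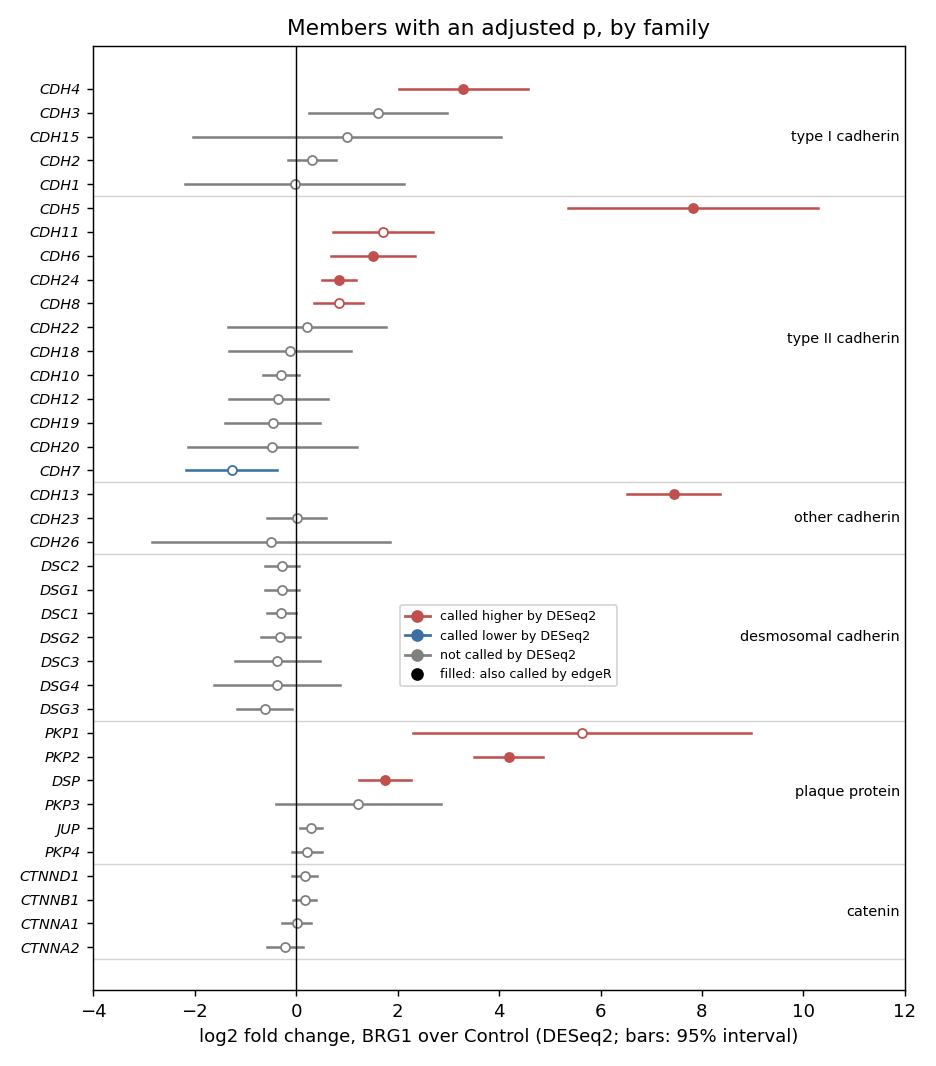
DESeq2 log2 fold change (BRG1 over Control, n = 3 each, horizontal axis) of the 37 junction genes with an adjusted p, grouped by family on the vertical axis, with bars for the 95% interval. Filled points were also called by edgeR. All 7 desmosomal cadherins lie below 0 and all 6 plaque genes lie above 0, and CDH5 and CDH13 lie farthest to the right.

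Promoter sequences bear on whether genes of the same structure that moved differently share short motifs, and so the promoters of a pair of plaque genes that were called higher and a pair of desmosomal cadherins that were not called, both without a block, are shown here. They span 250 bases before to 50 bases after the transcript start, from the RefSeq table of GRCh38.p14, 5′ to 3′ on the strand of the gene. Capitals mark CAGGTG or its reverse complement CACCTG, the E-box read by the repressors of epithelial genes SNAI and ZEB. DSP (chr6:7541421-7541720, plus strand) and PKP1 (chr1:201283256-201283555, plus strand) were called higher. DSG2 (chr18:31497927-31498226, plus strand) and DSC1 (chr18:31162807-31163106, minus strand) were not called. With the replicate block DESeq2 did not call PKP1 (adjusted p 0.0532) and called DSG2 lower (adjusted p 0.0484).
DSP: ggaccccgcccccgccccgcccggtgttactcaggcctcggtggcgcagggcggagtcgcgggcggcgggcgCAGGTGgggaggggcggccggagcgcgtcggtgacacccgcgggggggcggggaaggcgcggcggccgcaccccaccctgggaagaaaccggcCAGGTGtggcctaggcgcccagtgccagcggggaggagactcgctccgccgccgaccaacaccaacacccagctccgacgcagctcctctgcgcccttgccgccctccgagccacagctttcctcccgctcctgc
PKP1: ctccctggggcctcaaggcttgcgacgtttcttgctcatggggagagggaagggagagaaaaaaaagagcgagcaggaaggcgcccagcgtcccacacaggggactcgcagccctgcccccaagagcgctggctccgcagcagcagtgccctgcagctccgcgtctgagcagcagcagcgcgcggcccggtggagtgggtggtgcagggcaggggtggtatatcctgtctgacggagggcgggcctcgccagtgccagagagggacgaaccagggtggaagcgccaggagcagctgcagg
DSG2: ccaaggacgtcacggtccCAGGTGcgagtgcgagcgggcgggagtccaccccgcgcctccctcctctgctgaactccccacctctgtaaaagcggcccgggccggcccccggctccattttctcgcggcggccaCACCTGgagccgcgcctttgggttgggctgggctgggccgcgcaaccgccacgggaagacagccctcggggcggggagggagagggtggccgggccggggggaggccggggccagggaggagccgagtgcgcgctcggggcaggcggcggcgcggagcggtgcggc
DSC1: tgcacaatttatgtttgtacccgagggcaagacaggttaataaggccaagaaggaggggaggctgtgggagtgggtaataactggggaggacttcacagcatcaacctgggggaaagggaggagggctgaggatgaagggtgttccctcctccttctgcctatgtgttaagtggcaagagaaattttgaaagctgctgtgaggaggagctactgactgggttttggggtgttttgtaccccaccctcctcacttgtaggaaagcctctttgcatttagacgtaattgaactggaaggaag

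The table matched 25 of the 40 genes by symbol, with 45 promoters in all. CDH1, CDH3, CDH5, CDH6, CDH11, CDH13, CDH15, CDH16, CDH17, CDH22, CDH24, CTNND1, DSG4, PKP2 and PKP3 had no entry. The E-box CAGGTG, searched on both strands, was found in 7 of the 45 promoters, which belonged to CDH23, CDH4, DSC2, DSG1, DSG2, DSP and JUP. The promoters of CDH23 and CDH4 with this motif lay at starts far inside the gene. The E-box was present in 20.6% of all 35116 promoters of the table. In DSP it lay 178 and 85 bases before the start, and in DSG2 it lay 232 and 116 bases before it. DSP, which was called higher, and DSG2, which was not, thus each held 2 copies. The AP-1 motif TGANTCA was found in promoters of CDH12, CDH18 and CDH2, none of which was called, and in 7.71% of all promoters. In all 3 genes the site lay at a start inside the gene. Their promoters at or near the annotated 5′ end held no such site. Among the genes called higher, only CDH4, CDH8, DSP and PKP1 had a promoter to search. Those of CDH4 (from 61499171 and from 61599511) lay inside the gene, so the promoter at its annotated start of 61252261 was not searched. CDH13, CDH5, CDH24, CDH6, CDH11 and PKP2 had none, so their sites were not examined. No promoter of these genes held both motifs.

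Among the 6 plaque genes, PKP2, DSP and PKP1 rose with BRG1, while JUP, PKP3 and PKP4 did not pass the test. The fitted change was above 0 in all 6 and in 48.3% of all genes with an adjusted p. The median log2 fold change of the 6 was 1.49. Plakophilin PKP2 (chromosome 12, 32790745 to 32896798, minus strand of GRCh38, GENCODE release 44) clusters desmosomal cadherins and recruits desmoplakin. Its normalised counts were 107.2, 129 and 123.4 in Control samples 1 to 3 and 3282, 2072 and 1187 in BRG1 samples 1 to 3. The groups were far apart, and the spread among BRG1 samples was wide, with sample 1 the highest and sample 3 the lowest. Control samples averaged 119.9 ± 11.32 and BRG1 samples 2180 ± 1052 (SD, n = 3 each). This gave a log2 fold change of 4.19 (SE 0.35, DESeq2 adjusted p 9.4e-31, edgeR adjusted p 3.7e-04), and within replicate numbers the fold was 30.6, 16.1 and 9.61.

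Desmoplakin, DSP (chromosome 6, 7541338 to 7586714, plus strand), links the plaque to intermediate filaments, and its promoter with a pair of E-boxes is printed above. DSP had 241.2, 182.9 and 254.4 normalised counts in Control samples and 970.6, 729.3 and 589.6 in BRG1 samples. The lowest BRG1 sample thus exceeded the highest Control sample, and the log2 fold change was 1.75 (SE 0.26, DESeq2 adjusted p 2.9e-10, edgeR adjusted p 0.00268). PKP1 (chromosome 1, 201283452 to 201332993, plus strand), the plakophilin of stratified epithelia, was at 0 in all 3 Control samples and at 12.33, 6.645 and 8.955 normalised counts in BRG1 samples. Against a floor of 3 counts per library in Control, the mean of PKP1 in BRG1 samples was at least 2.96-fold higher. Its DESeq2 adjusted p of 0.00947 rested on few counts: it became 0.0532 with the replicate block, 0.0514 without Control replicate 3, and 0.224, 0.113 and 0.0548 without BRG1 replicates 1, 2 and 3.

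Plakoglobin, JUP (chromosome 17, 41754604 to 41786931, minus strand), a catenin that serves both desmosomes and adherens junctions, was well expressed in both groups. Its normalised counts were 2424, 2357 and 2495 in Control and 2859, 3027 and 3054 in BRG1 samples, which did not overlap. The log2 fold change of 0.30 (SE 0.11) missed the threshold in the test without a block (DESeq2 adjusted p 0.0661, edgeR adjusted p 0.14) and passed it with the replicate block (0.0274 by DESeq2 and 0.0495 by edgeR). PKP4, a plakophilin relative found at adherens junctions and desmosomes, had 1612, 1711 and 1920 normalised counts in Control and 2218, 1964 and 1918 in BRG1 samples, so that the groups overlapped (log2 fold change 0.22, DESeq2 adjusted p 0.458). PKP3, the plakophilin of simple and stratified epithelia, had 6.091, 5.863 and 5.3 normalised counts in Control and 7.979, 21.6 and 10.45 in BRG1 samples. These low counts did not overlap, and the gene was not called (log2 fold change 1.23, DESeq2 adjusted p 0.46).

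The makeup of the plakophilin transcripts changed. Per kilobase of canonical transcript, PKP4 held 92.6% ± 0.577 (SD, n = 3) of the normalised counts of the 4 plakophilin genes in Control and 47.9% ± 10.7 in BRG1 samples. PKP2 held 6.92% ± 0.548 in Control, and 61.4%, 52.9% and 39.9% in BRG1 samples 1 to 3. The level of PKP2 per kilobase was 28.3 in Control and 516 in BRG1 samples, the latter close to the 442 of PKP4. JUP remained the most abundant plaque gene at 692 and 850 normalised counts per kilobase. DSP stood at 23.3 and 78.7 on the same scale, below PKP2 in BRG1 samples.

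**Figure D2:**
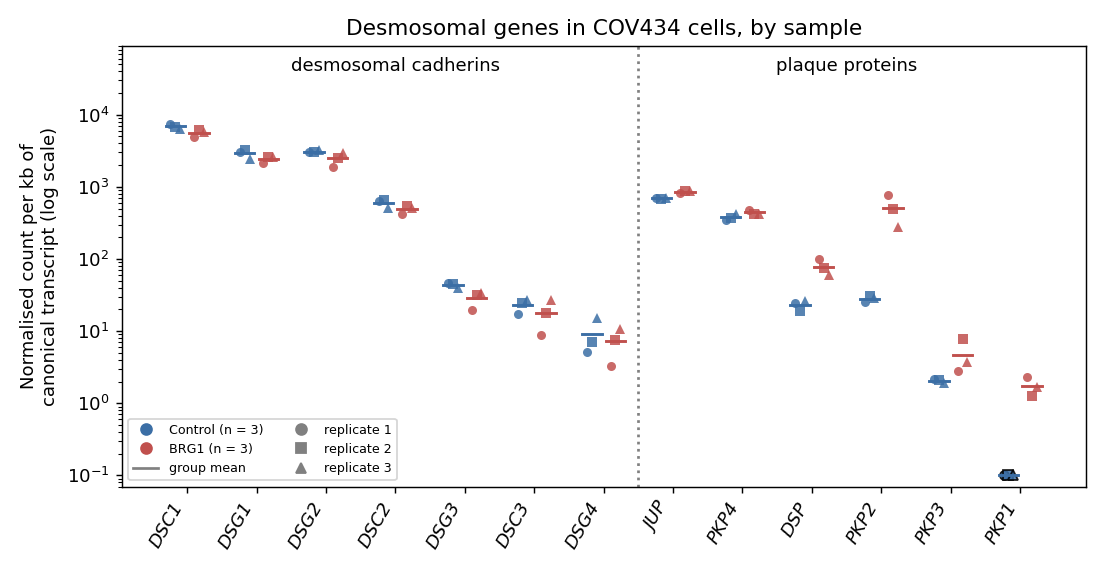
Normalised counts per kilobase of canonical transcript (log scale, vertical axis) of the 7 desmosomal cadherins and 6 plaque genes in each Control (blue) and BRG1 (red) sample, with marker shapes for replicate numbers and bars for group means. Values under 0.1, zeros included, are drawn at 0.1 with a black edge. DSC1 is the highest gene in both groups, and PKP2, DSP and PKP1 show a clear gap between Control and BRG1 samples.

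None of the 7 desmosomal cadherins was called in either direction by DESeq2 or edgeR without a block. These genes lie side by side on chromosome 18 between 30989365 and 31549008, in the order DSC3, DSC2, DSC1, DSG1, DSG4, DSG3 and DSG2. All 7 fitted changes were below 0 by DESeq2, by edgeR, with TMM factors and with the replicate block, with a median log2 fold change of -0.31 by DESeq2. Among all genes with an adjusted p, 48.3% lay above 0 by DESeq2 and 44.3% by edgeR. These fits used the same 6 samples, so they are not separate tests. At an unadjusted p under 0.05, 1 of the 7 (DSG3) was lower without the block and 5 were lower with it. The block raised this count over all genes too, from 884 of 16002 to 1883 of 15653.

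DSC1 (31129236 to 31162856, minus strand), a desmocollin of upper epidermal layers, was the most abundant of them. Its normalised counts were 31699, 28697 and 26907 in Control and 21021, 26182 and 24137 in BRG1 samples, so that every BRG1 sample lay below every Control sample by a small margin. Its log2 fold change was -0.29, with a 95% interval from -0.58 to 0.00 (DESeq2 adjusted p 0.248). Antisense transcripts (DSCAS) share 18.0% of its exon bases, and the libraries do not separate strands. Desmoglein DSG2 (31498177 to 31549008, plus strand), the form found in simple epithelia and heart, had 17388, 17079 and 18254 normalised counts in Control and 10891, 14536 and 16969 in BRG1 samples. BRG1 sample 1 was the lowest, and BRG1 sample 3 was close to Control. Its log2 fold change was -0.31 (SE 0.19, DESeq2 adjusted p 0.389) without a block and -0.34 with the replicate block, where DESeq2 called it (adjusted p 0.0484) and edgeR did not (adjusted p 0.101). Within replicate numbers the ratio of BRG1 to Control was 0.626, 0.851 and 0.93.

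DSC2, the widely expressed desmocollin, had 7776, 8092 and 6293 normalised counts in Control and 5239, 6639 and 6315 in BRG1 samples, and the groups overlapped (log2 fold change -0.28, 95% interval -0.62 to 0.06, DESeq2 adjusted p 0.381). DSG1, the desmoglein of differentiated epidermis, overlapped too, with 22228, 23445 and 17730 in Control and 15299, 18381 and 18585 in BRG1 samples (DESeq2 adjusted p 0.391). The other desmosomal cadherins were far lower. DSG3, the desmoglein of basal epidermis, had 263.1, 248.6 and 219.6 normalised counts in Control and 111, 179.4 and 186.6 in BRG1 samples, which did not overlap (log2 fold change -0.62, DESeq2 adjusted p 0.143). DSC3 and DSG4 overlapped between groups, and DSG4 reached at most 68.9 normalised counts.

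Per kilobase, DSC1 stood at 6888 ± 573 in Control (SD, n = 3) and 5628 ± 615 with BRG1. It was followed by DSG2 at 3085 and 2481 and DSG1 at 2939 and 2423, which lay within the spread of each other, and then by DSC2 at 599 and 492. DSG3 (43.7 and 28.5), DSC3 (23 and 18) and DSG4 (9.1 and 7.18) came last. DSC1 held 50.7% ± 1.52 of the per-kilobase total of the 7 genes in Control and 50.9% ± 2.4 in BRG1 samples, so that its share moved by less than the spread between replicates. The total itself was 13586 ± 875 in Control and 11077 ± 1391 in BRG1 samples, a ratio of 0.815. The total of the 6 plaque genes was 1125 ± 52.7 and 1893 ± 273, a ratio of 1.68. In these bulk samples, fewer cells that express a gene and less RNA per cell cannot be told apart.

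Keratinocyte markers were followed beside these genes, since DSC1, DSG1 and PKP1 are also epidermal. Of 8 markers, KRT5, KRT14, KRT1, SFN and IVL were called higher by DESeq2, and the summed normalised counts ranged from 807.1 to 1212 in Control and from 2090 to 8136 in BRG1 samples. TP63, the defining transcription factor of basal keratinocytes, averaged 7.157 and 6.118 normalised counts and was not called. KRT10, which held most of the Control sum, averaged 906.6 and 937.1 (DESeq2 adjusted p 0.961), and LOR averaged 2.267 and 8.673 (0.403). Neither was called. The part of these markers in the changes of PKP2, DSP and PKP1 was not tested.

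The 4 catenins were expressed at high levels and none was called. Alpha-catenin CTNNA1 (chromosome 5, 138610967 to 138935034), the link from cadherin complexes to actin, was the most abundant of all 40 genes per kilobase, at 10009 in Control and 10089 in BRG1 samples. It had 38034, 40716 and 33967 normalised counts in Control and 38389, 40717 and 34512 in BRG1 samples, so that same-numbered samples were nearly equal. Its log2 fold change was 0.01, with a 95% interval from -0.27 to 0.29 (DESeq2 adjusted p 0.984), and the sign turned with edgeR and with TMM factors.

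Beta-catenin CTNNB1 (chromosome 3, 41194741 to 41260096), which joins cadherin tails to alpha-catenin and also carries Wnt signals, had 14420, 14536 and 15108 normalised counts in Control and 17591, 16386 and 15525 in BRG1 samples. The groups did not overlap, yet the log2 fold change was only 0.17 (95% interval -0.06 to 0.39, DESeq2 adjusted p 0.471). CTNND1, the catenin that stabilises cadherins at the membrane, had 13761, 13866 and 15640 in Control and 16501, 16834 and 15530 in BRG1 samples, and the groups overlapped (log2 fold change 0.18, DESeq2 adjusted p 0.486). Its values are uncertain, since 39.1% of its exon bases overlap other annotated genes. CTNNA2, the neural alpha-catenin, had 6350, 6769 and 7382 in Control and 4848, 5702 and 7011 in BRG1 samples (log2 fold change -0.22, DESeq2 adjusted p 0.586). The summed catenin level per kilobase averaged 17921 ± 628 in Control (SD, n = 3) and 18527 ± 894 with BRG1, and it was higher with BRG1 in all 3 replicate numbers, from 17749 to 18738, from 18617 to 19296 and from 17397 to 17545. This sum was not tested.

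**Figure D3:**
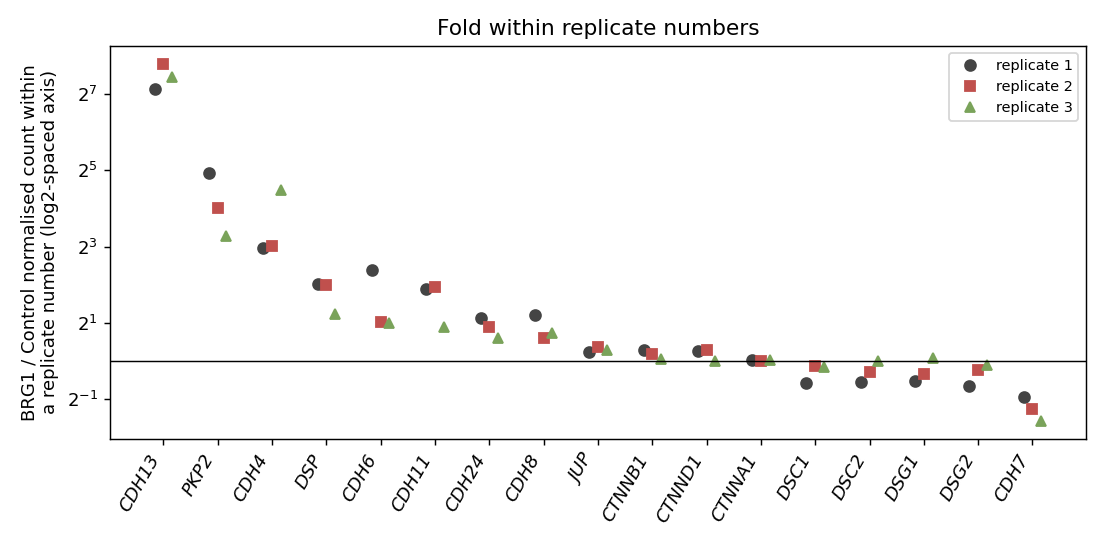
Ratio of BRG1 to Control normalised counts within each replicate number (log2-spaced vertical axis) for 17 of the junction genes, with a line at a ratio of 1. CDH13, PKP2 and CDH4 lie far above the line in all 3 replicates, CTNNA1 lies on it, and CDH7 lies below it in all 3.

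Among the type I cadherins, CDH4 rose and CDH1, CDH2, CDH3 and CDH15 did not pass the test. CDH4 (chromosome 20, 61252261 to 61940617, plus strand) encodes R-cadherin, first described in retina. It had 12.18, 7.036 and 2.271 normalised counts in Control and 95.02, 56.48 and 50.75 in BRG1 samples. The groups were far apart, although the gene stayed low in both, and the log2 fold change was 3.30 (SE 0.65, DESeq2 adjusted p 7.1e-06, edgeR adjusted p 0.00948), and 3.95 without Control replicate 1.

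E-cadherin, CDH1 (chromosome 16, 68737292 to 68835537, plus strand), the classical cadherin of epithelia, was scattered in both groups. Its normalised counts were 3.655, 57.46 and 3.786 in Control and 31.19, 8.307 and 23.88 in BRG1 samples. Control sample 2 was the highest of all 6 and the other Control samples were the lowest. The log2 fold change was -0.03, with a 95% interval from -2.18 to 2.13 (DESeq2 adjusted p 0.995), so that changes of several-fold either way were not excluded at this spread. Without Control replicate 2 it was 2.50 (DESeq2 adjusted p 0.108).

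N-cadherin, CDH2 (chromosome 18, 27932879 to 28177946, minus strand), the cadherin of neural and mesenchymal cells, was the most abundant type I gene. It had 330.1, 408.1 and 528.5 normalised counts in Control and 444.7, 559 and 574.6 in BRG1 samples, which overlapped (log2 fold change 0.31, 95% interval -0.16 to 0.78, DESeq2 adjusted p 0.551). P-cadherin, CDH3, a cadherin of basal epithelial cells, had 4.873, 8.208 and 6.814 in Control and 21.04, 14.12 and 26.87 in BRG1 samples. Its groups did not overlap, but at these low counts the log2 fold change of 1.62 missed the threshold (DESeq2 adjusted p 0.121, edgeR adjusted p 0.0747). CDH15, the muscle cadherin, averaged 1.668 and 3.567 normalised counts.

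Of the 12 type II cadherins with an adjusted p, CDH5, CDH24, CDH6, CDH8 and CDH11 rose and CDH7 fell by DESeq2. CDH5 (chromosome 16, 66366690 to 66404784, plus strand) encodes VE-cadherin, the cadherin of endothelial adherens junctions. It was at 0, 0 and 1.514 normalised counts in Control and at 272, 113.8 and 43.28 in BRG1 samples. Against a floor of 3 counts per library in Control, the BRG1 mean was at least 45.4-fold higher (DESeq2 adjusted p 1.3e-08, edgeR adjusted p 0.00299). BRG1 sample 1 was the highest, and the fitted log2 fold change of 7.82 became 6.96 without BRG1 replicate 1 and 9.35 without Control replicate 3.

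Endothelial markers were set beside CDH5. VWF and TEK were called higher by DESeq2, and the sum of the 6 markers ranged from 1735 to 2643 normalised counts in Control and from 6156 to 6802 in BRG1 samples. PECAM1, a defining marker, averaged 10.59 and 19.01 normalised counts, CLDN5 averaged 2.465 and 4.433, and EMCN averaged 0.7969 and 3.126, none of which was called. KDR held most of the Control sum and was not called either (means 1785 and 1961, log2 fold change 0.14, DESeq2 adjusted p 0.882). VWF made up most of the rise of the sum (means 44.77 and 3498), and TEK averaged 479.6 and 942.1. The part of endothelial genes in the change of CDH5 was not tested.

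CDH24 (chromosome 14, 23047062 to 23057538, minus strand), a broadly expressed type II cadherin, rose from an already high level. It had normalised counts of 776, 856 and 1043 in Control and 1687, 1573 and 1581 in BRG1 samples, and the BRG1 samples were tightly grouped. Its log2 fold change was 0.85 (SE 0.17, DESeq2 adjusted p 7.9e-06, edgeR adjusted p 0.00791). CDH10, a cadherin of brain, was the most abundant CDH gene per kilobase, at 690 in Control and 560 in BRG1 samples, and its counts of 2238, 2659 and 2218 in Control overlapped with the 1660, 1857 and 2261 of BRG1 samples (DESeq2 adjusted p 0.366). CDH24 stood at 261 and 473 on the same scale.

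The other higher calls of type II cadherins were smaller or rested on fewer counts. CDH6, the cadherin of developing kidney, had 26.8, 43.39 and 34.83 normalised counts in Control and 140.7, 87.22 and 68.66 in BRG1 samples. Its log2 fold change was 1.51 (SE 0.42, DESeq2 adjusted p 0.00406, edgeR adjusted p 0.0458), and the call was lost without BRG1 replicate 1 (DESeq2 adjusted p 0.126). CDH11, the mesenchymal and osteoblast cadherin, had 31.67, 29.31 and 21.96 in Control and 116.1, 112.1 and 40.3 in BRG1 samples. BRG1 sample 3 lay close to Control. CDH11 had a log2 fold change of 1.72 (SE 0.50, DESeq2 adjusted p 0.00679), and the DESeq2 adjusted p was 0.144, 0.157 and 0.0753 without BRG1 replicate 1, BRG1 replicate 2 or Control replicate 3.

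CDH8, a neuronal cadherin, had 124.3, 139.5 and 161.3 normalised counts in Control and 284.3, 210.2 and 267.2 in BRG1 samples, without overlap. CDH8 had a log2 fold change of 0.84 (SE 0.24, DESeq2 adjusted p 0.00579, edgeR adjusted p 0.0728), and the call was lost without BRG1 replicate 1 (DESeq2 adjusted p 0.0981), Control replicate 1 (0.0715) or Control replicate 2 (0.0525). CDH7, a cadherin of neural crest derivatives and brain, was the lower call. It had normalised counts of 35.33, 39.87 and 44.67 in Control and 18.13, 16.61 and 14.93 in BRG1 samples, which did not overlap (log2 fold change -1.26, SE 0.46, DESeq2 adjusted p 0.0443). This call was lost with edgeR (adjusted p 0.0507), with the replicate block (DESeq2 adjusted p 0.173) and without any single library, where the DESeq2 adjusted p lay between 0.105 and 0.264. Neural crest and melanocyte markers summed to 1212 to 1566 normalised counts in Control and 464.2 to 1058 in BRG1 samples, with SOX10 at 0 in all samples and 0 of 4 markers called. PMEL made up most of this drop (means 1043 and 490.6, DESeq2 adjusted p 0.2). MITF averaged 297.9 and 241.8, and MLANA averaged 5.914 and 7.668. The part of these markers in the change of CDH7 was not tested.

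Outside the classical types, CDH13 (chromosome 16, 82626965 to 83800640, plus strand) gave the clearest change of all 40 genes. It encodes T-cadherin, which has no cytoplasmic tail and is held at the membrane by a GPI anchor, so that it binds no catenin. CDH13 had normalised counts of 21.93, 9.381 and 6.814 in Control and 3110, 2092 and 1184 in BRG1 samples. The log2 fold change was 7.44 (SE 0.47, DESeq2 adjusted p 3.2e-54, edgeR adjusted p 1.5e-04), and 8.06 without Control replicate 1. Within replicate numbers the fold was 142, 223 and 174. Other annotated transcripts share 21.4% of its exon bases, the antisense CDH13-AS2 among them, and were not separated by strand.

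CDH13 also changed the makeup of the CDH transcripts. Per kilobase, it held 0.145% ± 0.105 (SD, n = 3) of the total of the 23 CDH genes in Control and 16.7% ± 6.92 in BRG1 samples. CDH10 held 59.6% ± 5.04 in Control and 35.2% ± 6.74 in BRG1 samples. CDH24 held 22.5% ± 2.64 and 29.6% ± 0.184, and CDH2 held 9.03% ± 1.71 and 8.24% ± 1.44. In BRG1 samples CDH10 (560), CDH24 (473), CDH13 (270) and CDH2 (131) were thus the leading CDH genes by normalised count per kilobase. The remaining genes CDH12, CDH18, CDH19, CDH20, CDH22, CDH23 and CDH26 had DESeq2 adjusted p-values between 0.705 and 0.996, and the largest group mean among them was 148.8 normalised counts.

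**Figure D4:**
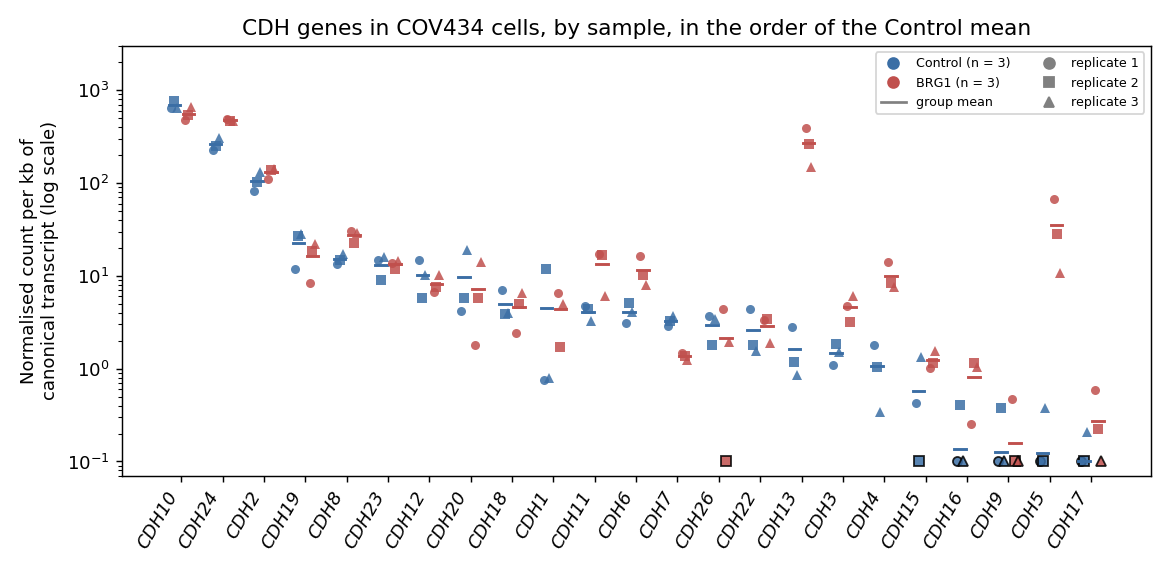
Normalised counts per kilobase of canonical transcript (log scale, vertical axis) of the 23 CDH genes in each Control (blue) and BRG1 (red) sample, ordered by the Control mean, with marker shapes for replicate numbers and bars for group means. Values under 0.1, zeros included, are drawn at 0.1 with a black edge. CDH13 and CDH5 move from the low end of the order to 270 and 35.3 per kilobase in BRG1 samples, while CDH1 is scattered in both groups.

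The genes called higher were spread over several loci. CDH8, CDH11, CDH5 and CDH13 lie on chromosome 16, which also carries CDH1, CDH3, CDH15 and CDH16, none of which was called. CDH3 and CDH1 are neighbours between 68636189 and 68835537. On chromosome 5, CDH6 was called and CDH10, CDH12 and CDH18 were not. On chromosome 18, where the desmosomal cadherins, CDH2, CDH7, CDH19 and CDH20 lie, CDH7 was the only call.

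Further genes of cell-cell junctions were examined by a list of partners. Of 56 listed genes, 53 had an adjusted p. DESeq2 called 18 of these higher (34.0%, background 11.0%) and 1 lower (1.89%, background 1.84%). edgeR tested 51 and called 14 higher (background 9.57%) and 1 lower (background 1.02%). Among 4 desmosome partners with an adjusted p, 3 rose. Periplakin, PPL, a plakin that lies in the plaque beside desmoplakin, had 428.8, 178.2 and 383.1 normalised counts in Control and 3024, 2366 and 1873 in BRG1 samples (log2 fold change 2.87, DESeq2 adjusted p 6.4e-16, edgeR adjusted p 0.00132). PERP, a membrane protein of desmosomes, averaged 7.108 and 45.26 (log2 fold change 2.71, DESeq2 adjusted p 0.00585), and PPP1R13L averaged 1690 and 2594 (DESeq2 adjusted p 0.0274, edgeR adjusted p 0.0738). KAZN overlapped between groups and was called by DESeq2 only with the replicate block (adjusted p 0.00955).

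Of 18 adherens junction partners, 7 were called higher by DESeq2 (background 11.0%). The nectin PVRL4 (NECTIN4), an immunoglobulin-like adhesion protein of epithelia, had 3.655, 8.208 and 5.3 normalised counts in Control and 208.2, 128.8 and 44.78 in BRG1 samples. All BRG1 samples lay above Control, and the log2 fold change was 4.49 (DESeq2 adjusted p 1.1e-09, edgeR adjusted p 0.00379). The others were LIMA1, CTNNAL1, PLEKHA7, ARVCF, PVRL1 and AJUBA, of which LIMA1, an actin-bundling partner of alpha-catenin, had the next largest log2 fold change at 1.98. AJUBA was not called by edgeR (adjusted p 0.0567).

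Of 22 other members of the cadherin superfamily, DESeq2 called 7 higher (background 11.0%) and 1 lower (background 1.84%). Calsyntenin CLSTN2, a synaptic cadherin, had 101.1, 56.28 and 77.23 normalised counts in Control and 4223, 2377 and 1318 in BRG1 samples (log2 fold change 5.08, DESeq2 adjusted p 2.6e-33, edgeR adjusted p 4.3e-04). The giant cadherin FAT2 had 7.309, 7.036 and 24.23 in Control and 108.1, 90.54 and 111.9 in BRG1 samples (log2 fold change 2.95, DESeq2 adjusted p 7.4e-07, edgeR adjusted p 0.00812), and the log2 fold change was 3.85 without Control replicate 3. PCDH19, FAT1, PCDH1, PCDH7 and DCHS1 were the other higher calls by DESeq2. PCDH7 overlapped between groups and was not called by edgeR (adjusted p 0.166), and DCHS1 was not called by edgeR without a block (adjusted p 0.0721) or by DESeq2 with the replicate block (adjusted p 0.0513). The protocadherin PCDH9 fell, from 71186, 61013 and 50467 normalised counts in Control to 37301, 45067 and 37372 in BRG1 samples. Its log2 fold change was -0.61 (DESeq2 adjusted p 0.00889, edgeR adjusted p 0.0377), and the call was lost without Control replicate 1 (DESeq2 adjusted p 0.107), Control replicate 2 (0.0649) or BRG1 replicate 1 (0.0668). Of 9 genes of cadherin shedding and turnover, DESeq2 called 1 higher, a share close to the background of 11.0%. This was the metalloprotease gene ADAM15, with means of 6693 in Control and 10894 normalised counts in BRG1 samples (DESeq2 adjusted p 7.0e-04). With the replicate block MMP7 (DESeq2 adjusted p 0.00852, edgeR adjusted p 0.00809) and PTPRM (0.00439 and 0.019) were called higher as well, although their groups overlapped. The backgrounds of higher calls with the block were 13.4% by DESeq2 and 13.7% by edgeR.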

How the data were processed

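RNA-seq of 3 Control and 3 BRG1 samples of COV434 cells, described by the submitters as biological replicates, was analysed. Unstranded poly(A) libraries were made from 500 ng of RNA and sequenced from both ends with reads of 78 bases. The reads were aligned with STAR (2.5.3a in the submitters' processing notes) by the authors, who quantified transcripts with Salmon (0.8.2) for hg38 and deposited estimated counts per gene symbol from tximport, scaled by transcript length and library size. Reads that fit several genes are shared by a model, so genes with overlapping exons or near-identical copies are uncertain.

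Estimated counts were rounded and tested across all genes with DESeq2 (1.42.0, R 4.3.3): Wald test, BRG1 against Control, median-ratio size factors, independent filtering, no covariate, Benjamini-Hochberg adjusted p under 0.05. This follows the tool of the study's methods. edgeR (4.0.16, quasi-likelihood, TMM, filterByExpr) and limma-voom (3.58.1) were alternatives, with other filters, TMM factors, stricter thresholds, a replicate block and each library left out. The fits on all 6 samples were tested on simulated data that held no replicate effect. There the share of false calls lay well above the threshold for DESeq2 and, by less, above it for edgeR. The simulation changed far fewer genes than were called here, and the share of false calls depends on that number. Deviations of same-numbered samples from their group means correlated at 0.569, 0.61 and 0.643 over 11686 genes (mean normalised count 100 or more). Those of other pairs correlated at -0.596 to 0.119. Deviations cancel out within a group, so positive values for same-numbered pairs force lower ones for the others. The numbers were taken to pair the samples. This pairing comes from the data and the shared numbers in the labels.

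Intervals are 1.96 standard errors to either side. A fold against a group at 3 counts or fewer per library sets the mean of the other group over that floor. It is a lower bound for the Control side only and does not cover the spread among BRG1 samples. Levels per kilobase used the canonical transcript of GENCODE release 44, while the authors used an earlier release. Genes were named when called by DESeq2, by DESeq2 with the block or by edgeR, together with 11 anchor genes and the partner genes with the largest changes among those called without overlap. Values of the other junction genes are given beside them, and the other partner genes given by name were chosen after their values were seen. The genes and lists were chosen with earlier results of these data known.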

Additional observations from a re-analysis of the deposited data

How the results depend on the processing

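The count of 10 junction genes called higher ranged from 6 to 9 when single libraries were left out, with 6 without BRG1 replicate 1, and lay between 7 and 10 under the other alternatives. The single lower call became 0 with edgeR, limma-voom, a filter of 10 counts in 3 samples, no independent filtering, edgeR with the replicate block, an adjusted p under 0.01 and in every fit without a library. With the replicate block in DESeq2 it was 1, for another gene. The 1 lower partner gene became 0 at an absolute log2 fold change of at least 1 and ranged from 0 to 2 without single libraries. The sign of CDH1 (-0.03) turned with limma-voom (0.96), DESeq2 with the replicate block (1.30) and edgeR with the replicate block (0.62), and its log2 fold change ranged from -0.54 to 2.50 without single libraries. That of CTNNA1 (0.01) turned with edgeR (-0.00), TMM factors (-0.01) and edgeR with the replicate block (-0.00), and ranged from -0.06 to 0.08 without single libraries. Over the named genes and all alternatives, direction and side of the threshold were kept in 322 values, the call was lost in 35 and gained in 4, and the sign turned in 10, while 4 had no adjusted p. The causes were not tested. Among all genes, the lower calls of DESeq2 numbered 294 without and 1035 with the replicate block. The calls of PKP1, CDH5 and CDH4 rested on few counts in Control, and changes in low genes such as CDH1 and CDH3 were not resolved at this depth and spread.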
